A study of Mus musculus with 7 samples.

Results

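The nucleolar rRNA processing and assembly factors are the proteins and protein parts of small nucleolar ribonucleoproteins (snoRNPs) that cut, modify and fold pre-ribosomal RNA. The set holds 58 genes, taken as the rows of the deposited count table whose symbol is on a list drawn up by function, of 24419 genes in all. The list was drawn up with earlier results of these data known, so its shares of calls are descriptions only. By role, 23 belong to the small-subunit processome, 7 are snoRNP proteins, 25 act in assembly of the large (60S) subunit and 3 are abundant nucleolar phosphoproteins. Their transcripts were measured in LLC1, a mouse Lewis lung carcinoma line kept in DMEM with foetal bovine serum. The knockdown group, 3 libraries, was LLC1 with an shRNA against Ddx54, and the wild-type group, 4 libraries, carried the WT label for the same gene. The series as a whole is about lowering DDX54 in lung tumours under PD-1 blockade. Neither a control construct in the wild-type group nor the sequence of the shRNA is given by the labels, which do not say whether the knockdown cells were 1 clone or a pool. They are also silent on whether replicates were separate cultures. The p-values below therefore set a group difference only against the spread among these libraries, and that spread may be technical.

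Ribosome production starts in the nucleolus, where RNA polymerase I makes a long precursor that is cut into the mature rRNAs. The small-subunit processome forms on the front of that precursor with the U3 snoRNA and the UTP-A, UTP-B and Mpp10 subcomplexes, and leads to the cuts that free the 18S rRNA. Box C/D snoRNPs guide methylation of the precursor and box H/ACA snoRNPs guide its pseudouridylation. A separate set of factors builds the 60S particle around the 5.8S and 28S rRNAs. Ddx54 is a nucleolar DEAD-box RNA helicase, and its yeast counterpart Dbp10 acts in 60S assembly. Tumour cells that divide fast make many ribosomes, and the transcription factor Myc is known to activate many of these genes.

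Raw read counts per gene, as the authors deposited them, totalled 14987324 to 18673395 per library. They were tested with the edgeR quasi-likelihood test over the 11594 genes that passed a filter on low counts, and a gene was called at a Benjamini-Hochberg adjusted p under 0.05 over all of them. Levels are in CPM, the usual depth-scaled count, here with trimmed-mean (TMM) factors, and each log2 fold change is knockdown over wild type with its standard error (SE). Ddx54 itself was at 45.9, 39.2 and 45.8 CPM in the knockdown libraries, against 80.4, 82.5, 78.6 and 83.2 CPM in wild type, so every knockdown library was lower than every wild-type library (log2 fold change -0.90, SE 0.096, adjusted p = 6.55e-09, edgeR). The knockdown level was 53.8% of wild type, and the exact permutation test (two-sided, 35 arrangements of the group labels) gave its smallest possible value, p = 0.0286. The row Rn45s, named for the pre-rRNA, took 7.96% to 9.07% of counts in knockdown and 10.7% to 12.5% in wild type. The precursor holds the mature rRNA sequences and polyA RNA was sequenced, so this share does not give the pre-rRNA level. With that row removed all 16 member calls remained. The epithelial markers summed to 148 to 168 CPM in knockdown and 238 to 248 CPM in wild type. Within them Krt18 and Krt19 fell, Krt8 did not pass (0.22, adjusted p = 0.373, edgeR), and Epcam and Cdh1 were never above 1 CPM. The lung epithelial markers summed to at most 0.814 CPM in knockdown and 1.961 CPM in wild type, with Nkx2-1 at 0 in every library, and all 5 leukocyte and all 3 endothelial markers were under 1 CPM. The fibroblast list summed to 28.2 to 30.8 CPM in knockdown and 21.6 to 27.9 CPM in wild type, of which Pdgfra averaged 24.5 CPM in knockdown and 18.99 CPM in wild type. Dcn averaged 4.199 CPM in knockdown and 5.88 CPM in wild type and Col1a1 0.304 CPM in knockdown and 0.788 CPM in wild type, the opposite direction, and none of the 3 passed. The part of these differences in the results was not tested. In bulk RNA, fewer cells of a type and less RNA per cell cannot be told apart.

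All 58 members passed the filter on low counts. Of them, 13 rose in knockdown (22.4%), 3 fell (5.17%) and 42 did not pass. Over all 11594 tested genes, 14.1% were called higher and 15.3% lower, 29.4% in either direction. The members thus held a larger share of rises and a smaller share of falls than the table as a whole, though the difference between these shares was not tested. Their changes were small, with a median absolute log2 fold change of 0.14 for the members and 0.27 for all tested genes. These medians were not matched for expression level. A member's median CPM over the libraries ran from 20.3 to 6862, and that of a tested gene from 0 to 108912. The median signed log2 fold change was 0.11 for the members, of which 45 were positive and 13 negative, and 0.0010 for all tested genes. The changes ran from -0.37 for Imp3 to 0.80 for Utp20. Leaving out a single library moved the number of members called higher between 8 (without knockdown replicate 2) and 16 (without wild-type replicate 1), and the number called lower between 1 (without knockdown replicate 2) and 3. Nol11 and Las1l, which did not pass otherwise, were among those called without wild-type replicate 1.

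**Figure D1:**
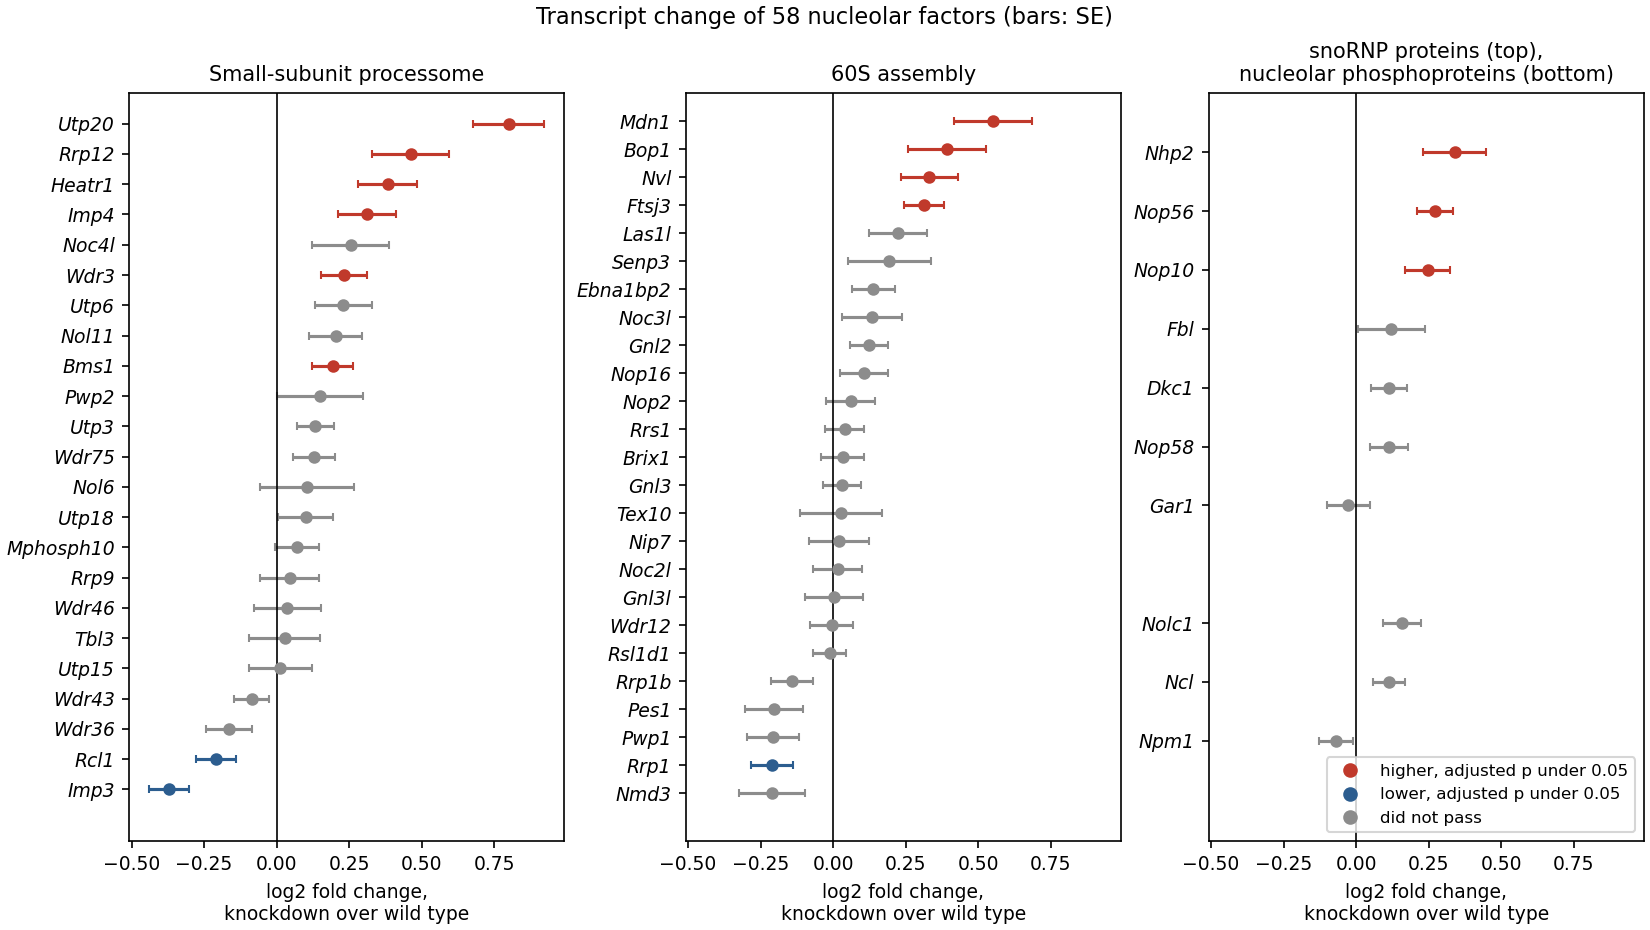
Log2 fold change, knockdown over wild type, of each of the 58 members (points) with its SE (bars), by class, with members called higher in red, lower in blue and those that did not pass in grey. Most points lie right of 0 and within 0.5 log2 units of it, with Utp20 farthest right at 0.80 and Imp3 farthest left at -0.37.

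For 16 members every knockdown library was above every wild-type library, and for 7 every knockdown library was below, 23 of 58 in all (39.7%). Over all tested genes the groups were separate in this way for 17.5% upward and 17.6% downward, 35.1% together. The SE of a member's log2 fold change had a median of 0.084 and ran from 0.055 to 0.16. For 41 of the 42 members that did not pass, the 95% interval (from the SE) stayed within 0.5 log2 units of 0, and for 28 of them within 0.3. Noc4l had the interval that reached past 0.5, to 0.51.

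The UTP-A subcomplex binds the start of the pre-rRNA, and in human cells its members have also been tied to transcription of the rRNA genes. Of the set, 5 members belong to it, of which 1 rose (20%, against 14.1% of all tested genes). Heatr1, a large HEAT-repeat protein and counterpart of yeast Utp10 (chromosome 13, 12395027 to 12440289, plus strand, GRCm38), was at 88.2, 81.9 and 87.2 CPM in the knockdown libraries, against 78.1, 53.2, 68.2 and 63.4 CPM in wild type. The ranges did not overlap (log2 fold change 0.38, SE 0.10, adjusted p = 0.00365, edgeR). Nol11, a further UTP-A protein, had 94.7, 83.04 and 89.97 CPM in the knockdown libraries, against 87.1, 68.5, 72.7 and 81.3 CPM in wild type, which overlapped and did not pass (0.20, adjusted p = 0.0936, edgeR). Wdr75, a WD-repeat protein, had separate ranges, 149.9, 155 and 147 CPM in the knockdown libraries, against 143, 127, 144 and 137 CPM in wild type, yet missed the threshold (0.13, adjusted p = 0.192, edgeR). Wdr43, the most abundant UTP-A transcript per transcript length, stood at -0.086 and Utp15 at 0.013, both short of the threshold. Utp4, listed under its older symbol Cirh1a and also a UTP-A protein, is not among the 58 but was called lower, at 146, 151 and 159.8 CPM in the knockdown libraries, against 192, 175, 166 and 177 CPM in wild type. Its groups did not overlap (log2 fold change -0.22, SE 0.072, adjusted p = 0.0167, edgeR), and the call was lost without wild-type replicate 1 or knockdown replicate 1 or 2 (adjusted p 0.0624 to 0.0929).

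In UTP-B, a WD-repeat scaffold that joins the pre-rRNA after UTP-A, 1 of 6 members rose (16.7%, against 14.1% of all tested genes). Wdr3, the counterpart of yeast Utp12 (chromosome 3, 100138180 to 100162407, minus strand), was at 142, 146 and 161 CPM in the knockdown libraries, against 137, 111, 126 and 135 CPM in wild type. All knockdown libraries were higher, by a small margin (log2 fold change 0.23, SE 0.079, adjusted p = 0.0230, edgeR). That call was lost without wild-type replicate 2, knockdown replicate 2 or knockdown replicate 3 (adjusted p 0.0524 to 0.177). Utp6 was one of the nearest members outside the threshold, at 76.5, 78.7 and 72.3 CPM in the knockdown libraries, against 71.6, 55.01, 60.7 and 71.2 CPM in wild type. Its groups did not overlap either (log2 fold change 0.23, SE 0.098, adjusted p = 0.0757, edgeR), and it passed without wild-type replicate 1 (adjusted p = 0.0362) or 4 (0.0459). Wdr36, the counterpart of yeast Utp21, pointed the other way at -0.16 (adjusted p = 0.117, edgeR), with all knockdown libraries below all wild-type libraries. The remaining UTP-B genes Pwp2, Utp18 and Tbl3 lay between 0.029 and 0.15.

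The Mpp10 complex, which bridges U3 and the pre-rRNA, held a call in each direction among its 4 members. Each call was 25% of them, against 14.1% called higher and 15.3% called lower over all tested genes. Imp3 (chromosome 9, 56937475 to 56938398, plus strand) encodes a small protein that in yeast helps U3 pair with the precursor. It was at 179, 178 and 180.1 CPM in the knockdown libraries, against 233, 251, 232 and 210.1 CPM in wild type. Every knockdown library was lower, and the 3 knockdown values lay closer together than the 4 wild-type values (log2 fold change -0.37, SE 0.069, adjusted p = 8.47e-05, edgeR). Imp4 (chromosome 1, 34439851 to 34449356, plus strand), its partner in the same complex, was at 63.96, 68.7 and 61.3 CPM in the knockdown libraries, against 52.2, 46.8, 54.2 and 55.4 CPM in wild type. It was higher in every knockdown library (log2 fold change 0.31, SE 0.10, adjusted p = 0.0171, edgeR), and the call was lost without knockdown replicate 2 (adjusted p = 0.113). Mphosph10, the scaffold of the complex, was at 0.071 (95% interval -0.080 to 0.22), and the associated factor Utp3 at 0.13 (95% interval 0.0090 to 0.26), neither past the threshold. Transcripts of this single complex therefore pointed in different directions, and the difference between the partners was not tested.

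Among the 8 other processome factors 3 rose and 1 fell (37.5% and 12.5%, against 14.1% and 15.3% of all tested genes). Utp20, a very large HEAT-repeat protein needed for processing in the 18S pathway (chromosome 10, 88746607 to 88826804, minus strand), had the largest change of all 58 members. It was at 108, 113 and 114 CPM in the knockdown libraries, against 76.8, 46.1, 59.7 and 72.8 CPM in wild type. The lowest knockdown library was above the highest wild-type library, and wild-type replicate 2 was the lowest of its group (log2 fold change 0.80, SE 0.12, adjusted p = 4.94e-05, edgeR). Without that replicate the log2 fold change was 0.67 and the call stood. Rrp12, a HEAT-repeat protein that in yeast takes part in pre-ribosome export (chromosome 19, 41862851 to 41896173, minus strand), was at 31.98, 31.97 and 31.6 CPM in the knockdown libraries, against 22.4, 21.4, 22.9 and 25.8 CPM in wild type. The groups were clearly apart although the gene is weakly expressed (log2 fold change 0.46, SE 0.13, adjusted p = 0.00799, edgeR).

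Bms1 and Rcl1 act as a pair, in yeast a GTPase and the partner it brings to the processome. Bms1 (chromosome 6, 118383381 to 118419474, minus strand) was at 243, 249.6 and 255 CPM in the knockdown libraries, against 244, 195, 219 and 213 CPM in wild type. Here wild-type replicate 1 lay inside the knockdown range (log2 fold change 0.19, SE 0.070, adjusted p = 0.0362, edgeR), and the call was lost on leaving out any library other than wild-type replicate 1 (adjusted p 0.0641 to 0.137). Rcl1 (chromosome 19, 29101375 to 29143929, plus strand) was at 183, 173 and 193 CPM in the knockdown libraries, against 223, 203, 211 and 209 CPM in wild type. It was lower in every knockdown library (log2 fold change -0.21, SE 0.068, adjusted p = 0.0187, edgeR), a call lost without wild-type replicate 1 or without knockdown replicate 1 or 2 (adjusted p 0.0571 to 0.132). As with Imp3 and Imp4, the signs of the partners differed, and that difference was not tested. Noc4l (0.25), Nol6 (0.10), the U3 protein Rrp9 (0.045) and Wdr46 (0.037) did not pass.

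**Figure D2:**
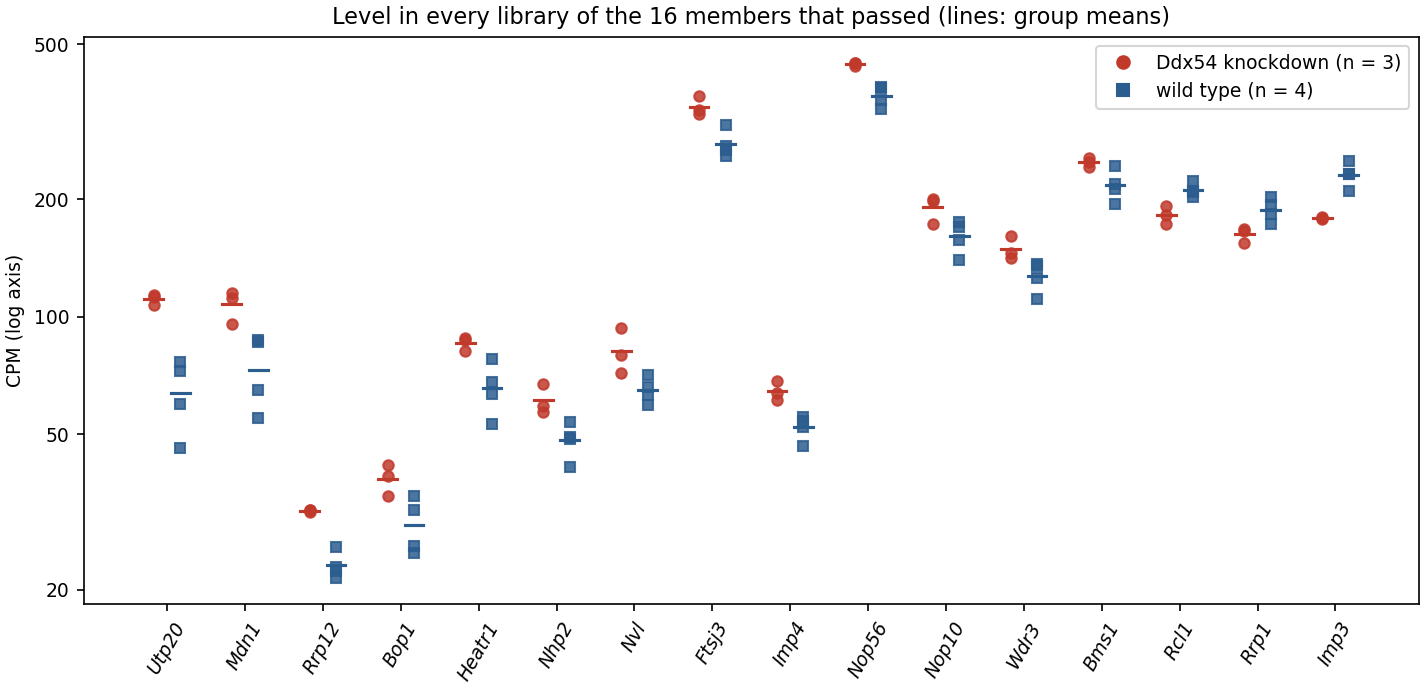
CPM on a log axis in every library of the 16 members that passed, with 3 Ddx54 knockdown libraries (circles, left) and 4 wild-type libraries (squares, right) for each gene and lines at the group means. The circles lie above the squares for Utp20, Mdn1 and Rrp12 at the left and below them for Rcl1, Rrp1 and Imp3 at the right, and only Nop10 and Bms1 have overlapping groups.

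The sequence before the transcription start is shown for the members at the ends of this range and for both ATPases of the 60S class described further on, so that their motif content can be set beside their change. RefSeq promoter windows on GRCm38.p6, from 250 bases before to 50 after a start, were matched by symbol for 47 of the 58 members (52 windows). Each line gives the 150 bases before the start, 5′ to 3′ on the gene's strand, with searched motifs in capitals on whichever strand they were found. They are Utp20 (chr10:88826815-88826964, minus strand), Mdn1 (chr4:32656969-32657118, plus strand), Nvl (chr1:181144205-181144354, minus strand) and Imp3 (chr9:56937350-56937499, plus strand).
Utp20: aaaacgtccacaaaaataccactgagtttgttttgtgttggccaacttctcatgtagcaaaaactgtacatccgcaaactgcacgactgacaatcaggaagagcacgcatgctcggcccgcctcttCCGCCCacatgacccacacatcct
Mdn1: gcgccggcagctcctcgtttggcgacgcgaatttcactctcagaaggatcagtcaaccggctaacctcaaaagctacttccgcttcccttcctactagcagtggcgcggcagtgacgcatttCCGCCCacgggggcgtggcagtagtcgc
Nvl: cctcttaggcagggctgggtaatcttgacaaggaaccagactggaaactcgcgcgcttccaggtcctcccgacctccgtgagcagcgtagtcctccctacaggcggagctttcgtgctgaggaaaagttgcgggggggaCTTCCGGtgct
Imp3: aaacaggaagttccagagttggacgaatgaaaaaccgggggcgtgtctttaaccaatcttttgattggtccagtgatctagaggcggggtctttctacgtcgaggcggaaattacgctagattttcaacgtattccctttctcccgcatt
The capitals mark a GC box (GGGCGG, here on the other strand as CCGCCC) 24 bases before the start of Utp20 and 28 bases before that of Mdn1. In Nvl they mark an ETS site (CCGGAAG, on the other strand as CTTCCGG) 11 bases before the start. The Imp3 stretch held none of the 5 motifs searched.

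The Myc/Max E-box (CACGTG, a palindrome) lay just after the start in the most raised members of both subunit classes. The stretches from 24 to 50 bases after the start are shown for Utp20 (chr10:88826765-88826791, minus strand) and Mdn1 (chr4:32657142-32657168, plus strand), with the E-box in capitals.
Utp20: agcggcactaactaCACGTGaggaaaa
Mdn1: cgtgaattccttcacCACGTGtgtgtc
The E-box starts at base 38 after the start in Utp20 and at base 39 in Mdn1. Over all member windows 11 of 52 held an E-box (21.2%), against 10.1% of the 11356 windows of tested genes and 7.15% of all 32851 windows. Of the members that rose, Imp4, Mdn1 and Utp20 had one, 3 of 11 with a window (27.3%), and so did 8 of the 38 windows of members that did not pass (21.1%). An ETS site stood in 42.3% of member windows and 18.1% of those of tested genes, and a GC box in 67.3% and 64.1%. The motif AAGATGGCG, bound by YY1, was in 3.85% and 3.13%, among them Ftsj3 and Imp4, and the NRF1 motif was in 0 and 2.17%. Both strands were searched, no motif contains another, and a match is a description of the letters only. Myc, the factor that binds the E-box, averaged 74.96 ± 5.56 CPM in knockdown and 151 ± 22.02 CPM in wild type (SD, n = 3 and n = 4), a fall of all knockdown libraries below all wild-type libraries (log2 fold change -1.01, SE 0.093, adjusted p = 3.31e-10, edgeR).

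The snoRNP proteins hold 3 rises among 7 members (42.9%, against 14.1% of all tested genes) and 0 falls (against 15.3%), a difference that was not tested. Nop56, a core protein of box C/D particles that the methyltransferase fibrillarin works in (chromosome 2, 130274430 to 130279313, plus strand), was at 447, 449 and 439.8 CPM in the knockdown libraries, against 386, 341, 389 and 361 CPM in wild type. The groups were well separated for a change of this size (log2 fold change 0.27, SE 0.062, adjusted p = 0.000935, edgeR). Its fellow core protein Nop58, the most abundant snoRNP transcript per length, was at 868, 819.6 and 693 CPM in the knockdown libraries, against 745, 707, 764 and 718 CPM in wild type. It overlapped and did not pass (log2 fold change 0.11, SE 0.065, adjusted p = 0.202, edgeR), although it passed without knockdown replicate 3 (adjusted p = 0.0329). Fbl, fibrillarin itself, was at 0.12 (95% interval -0.10 to 0.35) and did not pass.

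Box H/ACA particles carry the pseudouridine synthase Dkc1 with Nhp2, Nop10 and Gar1. Nhp2 (chromosome 11, 51619735 to 51623714, plus strand) was at 57.1, 59.05 and 67.2 CPM in the knockdown libraries, against 53.9, 49.4, 48.6 and 41.3 CPM in wild type. Every knockdown library was higher (log2 fold change 0.34, SE 0.11, adjusted p = 0.0156, edgeR). Nop10 (chromosome 2, 112261926 to 112263269, plus strand), whose protein is the shortest in the set, was at 173, 198 and 201 CPM in the knockdown libraries, against 158, 170.5, 175 and 139.6 CPM in wild type, so that knockdown replicate 1 lay inside the wild-type range (log2 fold change 0.25, SE 0.078, adjusted p = 0.0142, edgeR). The Nhp2 call was lost without wild-type replicate 4 or knockdown replicate 3 (adjusted p 0.0665 to 0.130), and the Nop10 call without wild-type replicate 4 or knockdown replicate 2 or 3 (adjusted p 0.0729 to 0.0958). Dkc1, at 0.11 (95% interval -0.0076 to 0.24), and Gar1, at -0.027 (-0.17 to 0.12), did not pass. Members with snoRNA genes inside their introns or borders, the 6 genes Nop56, Nop58, Gnl3, Ncl, Wdr43 and Dkc1, had a median log2 fold change of 0.11, the same to 2 decimals as the 52 others.

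In the 60S class 4 of 25 members rose and 1 fell (16% and 4%, against 14.1% and 15.3% of all tested genes). The rises included both members of the AAA-type ATPases, which pull assembly factors off pre-60S particles. Mdn1, the giant ATPase called Rea1 in yeast (chromosome 4, 32657119 to 32775217, plus strand), was at 96.2, 115 and 112 CPM in the knockdown libraries, against 86.1, 55.01, 64.97 and 87.1 CPM in wild type. All knockdown libraries were higher, with wild-type replicates 2 and 3 well below 1 and 4 (log2 fold change 0.55, SE 0.14, adjusted p = 0.00572, edgeR). Leaving out wild-type replicate 2 gave 0.44 and kept the call. Nvl, the counterpart of yeast Rix7 (chromosome 1, 181087138 to 181144204, minus strand), was at 93.9, 79.8 and 71.8 CPM in the knockdown libraries, against 63.01, 59.6, 66.3 and 71.2 CPM in wild type. The knockdown values spread widely, and the lowest of them lay just above the highest wild-type value (log2 fold change 0.33, SE 0.097, adjusted p = 0.00872, edgeR). Without knockdown replicate 1 the call was lost (adjusted p = 0.145).

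Bop1, Pes1 and Wdr12 form the PeBoW complex, needed for maturation of the 28S and 5.8S rRNAs. Bop1 (chromosome 15, 76452989 to 76477277, minus strand) was at 34.8, 39.2 and 41.6 CPM in the knockdown libraries, against 25.8, 24.9, 31.96 and 34.8 CPM in wild type. The lowest knockdown and highest wild-type libraries were almost level (log2 fold change 0.39, SE 0.13, adjusted p = 0.0238, edgeR), and the call was lost without wild-type replicate 1 or 2 or knockdown replicate 2 or 3 (adjusted p 0.0739 to 0.127). Pes1 pointed down, at 71.1, 58.9 and 51.6 CPM in the knockdown libraries, against 69.9, 70.7, 66.9 and 71.6 CPM in wild type, and did not pass (log2 fold change -0.20, SE 0.10, adjusted p = 0.134, edgeR). Wdr12 was at -0.0043 (95% interval -0.15 to 0.14). The complex thus had 1 member that rose (33.3%, against 14.1% of all tested genes) and 2 that did not pass. The difference between them was not tested.

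Of the 13 early and structural 60S factors 1 rose and 1 fell (7.69% each, against 14.1% and 15.3% of all tested genes). Ftsj3, the counterpart of the yeast methyltransferase Spb1 (chromosome 11, 106249142 to 106256079, minus strand), was at 367, 331 and 339 CPM in the knockdown libraries, against 268, 259, 274 and 310.4 CPM in wild type. The groups were separate, and the call was kept in every alternative run (log2 fold change 0.31, SE 0.067, adjusted p = 0.000488, edgeR). Rrp1 (chromosome 10, 78400384 to 78413043, minus strand), an early 60S factor known from yeast, was at 166, 154 and 168 CPM in the knockdown libraries, against 184, 203, 173 and 194 CPM in wild type, all knockdown libraries being lower (log2 fold change -0.21, SE 0.072, adjusted p = 0.0240, edgeR). The call was lost without wild-type replicate 2 or 4 or knockdown replicate 1 or 2 (adjusted p 0.0531 to 0.150). Its paralogue Rrp1b, at 132, 139.9 and 133 CPM in the knockdown libraries, against 149, 142, 156 and 147 CPM in wild type, was also separate but did not pass (-0.14, adjusted p = 0.143, edgeR).

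Rsl1d1 had the most abundant 60S transcript per length, with 584, 585 and 602 CPM in the knockdown libraries, against 596, 591, 605 and 588 CPM in wild type. These values overlapped throughout (log2 fold change -0.012, SE 0.057, adjusted p = 0.914, edgeR). The 9 other early factors did not pass and ran from -0.21 for Pwp1 to 0.14 for Ebna1bp2, with Noc2l, Noc3l, Nop2, Nop16, Rrs1, Brix1 and Nip7 between them. The GTPases Gnl2 (0.12), Gnl3 (0.031), which is nucleostemin, and Gnl3l (0.0026) did not pass, nor did Nmd3, the adaptor that takes pre-60S particles out of the nucleus. Nmd3 had 43.8, 35.1 and 38.97 CPM in the knockdown libraries, against 45.4, 47.8, 44.6 and 43.9 CPM in wild type, all knockdown libraries being lower (-0.21, adjusted p = 0.178, edgeR). It passed once counts were corrected for GC and length (-0.43, adjusted p = 0.00477, edgeR). That correction rests on 1 transcript per gene, for Nmd3 one of 9135 bases at 38.9% GC for 503 codons. Las1l, an endonuclease that cuts the second internal spacer, was at 0.22, its partner Tex10 at 0.027 and the SUMO protease Senp3 at 0.19, all short of the threshold.

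Ncl (nucleolin), Npm1 (nucleophosmin) and Nolc1 are abundant phosphoproteins of the nucleolus. Ncl and Npm1 together made up 50.8% to 51.8% of all member counts in knockdown and 51.4% to 52.1% in wild type. Npm1, the highest member per length, was at 2433, 2597 and 2287 CPM in the knockdown libraries, against 2688, 2425, 2567 and 2554 CPM in wild type, with overlapping groups (log2 fold change -0.069, SE 0.057, adjusted p = 0.405, edgeR). Ncl was at 7555, 6731 and 7356 CPM in the knockdown libraries, against 6868, 6320.1, 6596 and 6862 CPM in wild type, again overlapping (log2 fold change 0.11, SE 0.055, adjusted p = 0.120, edgeR). Nolc1, which carries snoRNPs through the nucleolus, was at 406, 399 and 391 CPM in the knockdown libraries, against 382, 318, 359.7 and 369.6 CPM in wild type. Its groups were separate, and it was the member nearest outside the threshold (log2 fold change 0.16, SE 0.065, adjusted p = 0.0653, edgeR), passing without wild-type replicate 1 (adjusted p = 0.0368). The members' summed level was 18369 to 19285 CPM in knockdown and 16972 to 18335 CPM in wild type, so the groups were apart by a very narrow margin. The sum of Ncl and Npm1 overlapped, at 9328 to 9988 CPM in knockdown and 8745 to 9556 CPM in wild type. Without those genes the sum was 8964 to 9296 CPM in knockdown and 8227 to 8779 CPM in wild type, with no overlap.

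Set side by side, the small-subunit processome had 6 rises and 2 falls among 23 members (26.1% and 8.70%) and the 60S class 4 rises and 1 fall among 25 (16% and 4%). Over all tested genes these shares were 14.1% and 15.3%, so the 60S share of rises was close to that of the table. The processome rises numbered 3 without knockdown replicate 2 and its falls 1 without that library, wild-type replicate 1 or knockdown replicate 1. The single 60S fall, Rrp1, was lost without wild-type replicate 2 or 4 or knockdown replicate 1 or 2, and Pes1 passed as a fall without knockdown replicate 1. The median log2 fold change was 0.13 for the processome and 0.033 for the 60S class. The 60S median moved with the libraries used. It was 0.020 without wild-type replicate 2, 0.055 without wild-type replicate 1 and 0.068 without wild-type replicate 4. It was 0.050 without knockdown replicate 2, 0.075 without knockdown replicate 3 and 0.072 with correction for GC content and length. Over the omissions of 1 library the processome median moved about as much, between 0.11 and 0.16. To compare the classes within a library, each gene's log2 CPM was set relative to its mean over the 7 libraries and averaged over the class. The processome score was 0.086, 0.062 and 0.087 in knockdown, against -0.00049, -0.16, -0.046 and -0.023 in wild type. The 60S score was 0.041, 0.036 and 0.043 in knockdown, against 0.0064, -0.098, -0.031 and 0.0015 in wild type. Both were higher in each knockdown library, and the group means lay further apart for the processome. The difference between them, processome minus 60S, was 0.045, 0.026 and 0.044 in knockdown and -0.0068, -0.067, -0.015 and -0.025 in wild type. All 3 knockdown values were above all 4 wild-type values, which is a description of chosen genes with no test. The opposite signs of the group means follow from setting each gene relative to its mean over the 7 libraries. Wild-type replicate 2 gave the lowest processome, 60S and all-member scores.

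**Figure D3:**
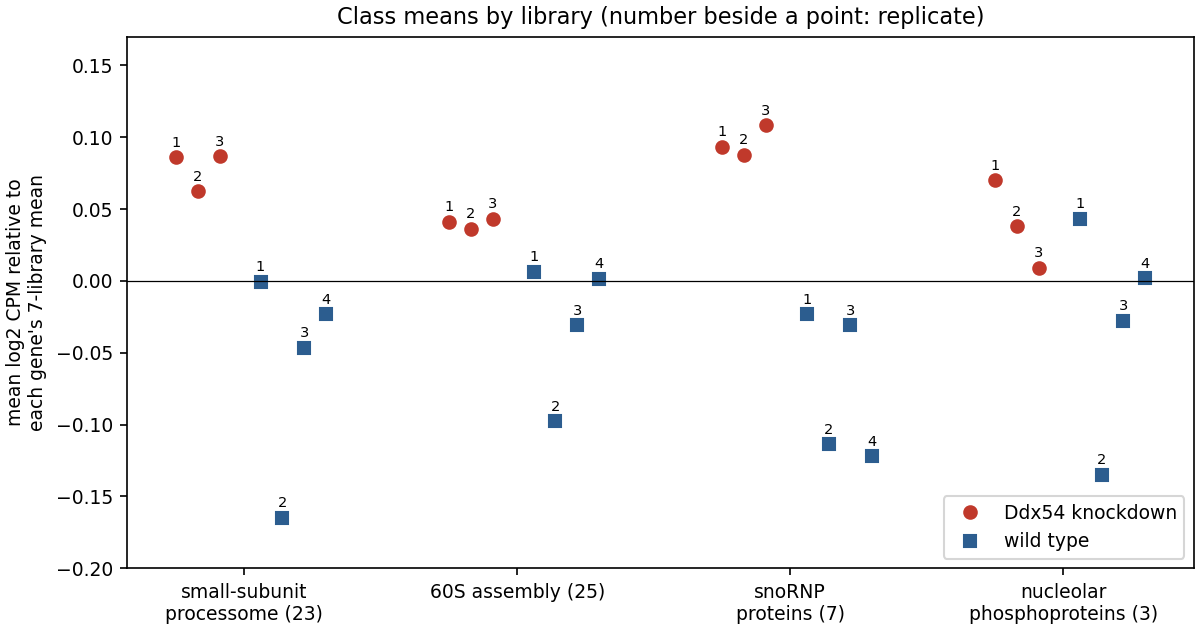
Mean log2 CPM of each class relative to each gene's 7-library mean, by library, with Ddx54 knockdown as circles on the left, wild type as squares on the right and the replicate number at each point. The groups are separate for the processome, the 60S class and the snoRNP proteins but not for the phosphoproteins, and wild-type replicate 2 is lowest for the processome at -0.16.

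Several of the members that rose most encode long proteins. The 3 members of 2000 codons or more, Mdn1 (5582 codons), Utp20 (2789) and Heatr1 (2143), all rose, as did Rrp12 (1295) and Bms1 (1284), while Nol6 (1152) did not pass. Of the 33 members with at least 500 and under 1000 codons 5 rose (15.2%), against 14.6% of all tested genes of that length. Of the 13 members with at least 250 and under 500 codons 1 rose (7.69%) and 2 fell, and of the 6 shorter ones 2 rose (33.3%) and 1 fell, so the share that rose did not climb steadily with length. Across members the Spearman correlation of codon number with log2 fold change was 0.37 (n = 58), and across all tested genes with a coding length it was 0.065 (n = 11090). With transcript length in place of codon number it was weaker across members, at 0.16 (n = 58), and 0.067 across all tested genes with that length (n = 11505). These are correlations across genes of the same 7 libraries, and genes are not independent replicates. Among all tested genes of 2000 codons or more 23.8% of 282 were called higher, against 14.4% of 2273 genes under 250 codons. The shares called lower were 11.3% and 18.1%. When counts were corrected for GC content and length the log2 fold changes were 0.73 for Utp20, 0.40 for Mdn1 and 0.33 for Heatr1, and all 3 calls stood. The short members that moved were Nop10 (64 codons) and Nhp2 (153), which rose, and Imp3 (184), which fell.

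**Figure D4:**
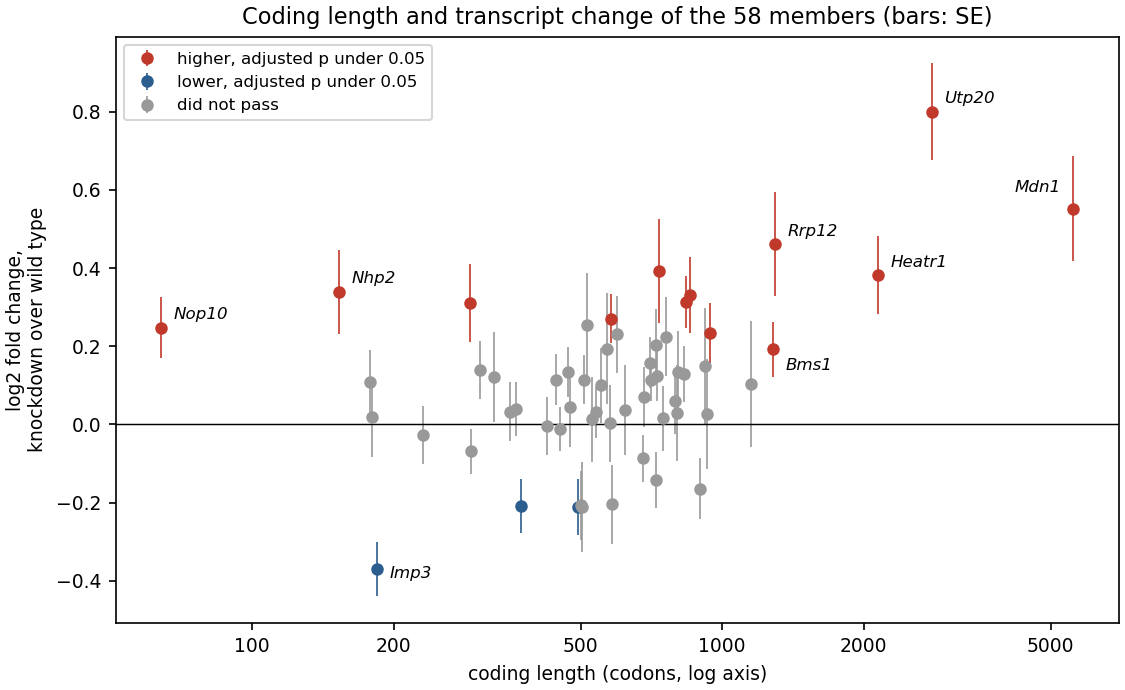
Coding length in codons (log axis) against log2 fold change, knockdown over wild type, for the 58 members, with SE bars and called members in colour. Heatr1, Utp20 and Mdn1 stand at the upper right, with 0.38, 0.80 and 0.55, while short members lie on both sides of 0.

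Other ribosome assembly genes were counted from lists compiled by function, also with earlier results of these data known, so their shares of calls are descriptions only. Of 26 other small-subunit factors 3 rose and 4 fell, at a median of 0.044 (log2 fold change), and of 26 other large-subunit factors 3 rose and 5 fell, with a median of 0.025. The shares that rose and fell were 11.5% and 15.4% in the small-subunit list and 11.5% and 19.2% in the large-subunit list, near the 14.1% and 15.3% of all tested genes. Without knockdown replicate 2 the falls numbered 2 and 3 in these lists, and without knockdown replicate 3 the large-subunit falls numbered 3. In the small-subunit list Pno1, a late 40S factor, had 67.4, 62.7 and 61.5 CPM in the knockdown libraries, against 45.2, 50.8, 50.5 and 48.5 CPM in wild type, with no overlap (log2 fold change 0.39, SE 0.10, adjusted p = 0.00286, edgeR). Wbscr22, a methyltransferase of the 18S rRNA, rose by 0.32 on the log2 scale, a call lost without wild-type replicate 2 or knockdown replicate 2 or 3 (adjusted p 0.0571 to 0.115). Utp11l, a processome protein, had 172, 182 and 186 CPM in the knockdown libraries, against 258, 243, 227 and 233 CPM in wild type, again apart (log2 fold change -0.42, SE 0.068, adjusted p = 1.12e-05, edgeR). Nop14, a processome protein as well, changed by -0.38, adjusted p = 0.000134 (edgeR). Falls of this size therefore occurred in the small-subunit pathway beside the fall of Imp3.

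In the large-subunit list Gltscr2, a nucleolar protein that binds the 5S ribonucleoprotein, had 197, 194 and 198 CPM in the knockdown libraries, against 282, 306, 269 and 257 CPM in wild type (log2 fold change -0.50, SE 0.068, adjusted p = 5.72e-07, edgeR), without overlap. Nsa2 fell (-0.38, adjusted p = 0.000340, edgeR), while Rbm28 rose (0.24, adjusted p = 0.00327, edgeR). Pelp1, a partner of Las1l, Tex10 and Senp3, rose (0.24, adjusted p = 0.0142, edgeR), a call lost without knockdown replicate 1 (adjusted p = 0.0944).

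Nucleolar DEAD-box helicases other than Ddx54 had 4 rises among 12 (33.3%, against 14.1% of all tested genes) and a median log2 fold change of 0.089. The rises numbered 2 without wild-type replicate 2 or knockdown replicate 1 or 2, and 1 without knockdown replicate 3. Ddx21, a helicase in rRNA transcription and processing, was at 871, 914 and 924 CPM in the knockdown libraries, against 673, 575, 677 and 669 CPM in wild type. All knockdown libraries were higher (log2 fold change 0.48, SE 0.062, adjusted p = 2.60e-07, edgeR). Ddx51 also rose (0.47, adjusted p = 0.0427, edgeR), a call lost on leaving out wild-type replicate 2 or 4 or any knockdown library (adjusted p 0.0564 to 0.257). The RNA exosome and its cofactors, which trim pre-rRNA and degrade spacers, had 8 rises among 14 genes (57.1%, against 14.1% of all tested genes) and a median of 0.22, though 5 rises without wild-type replicate 4 or knockdown replicate 1. Dis3, a catalytic subunit, was at 126, 117 and 108 CPM in the knockdown libraries, against 90.05, 75.05, 90.3 and 79.7 CPM in wild type, with no overlap (log2 fold change 0.48, SE 0.085, adjusted p = 4.19e-05, edgeR). Exosc2, a cap subunit, rose (0.46, adjusted p = 0.00492, edgeR) and lost its call without knockdown replicate 1 (adjusted p = 0.0574).

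**Figure D5:**
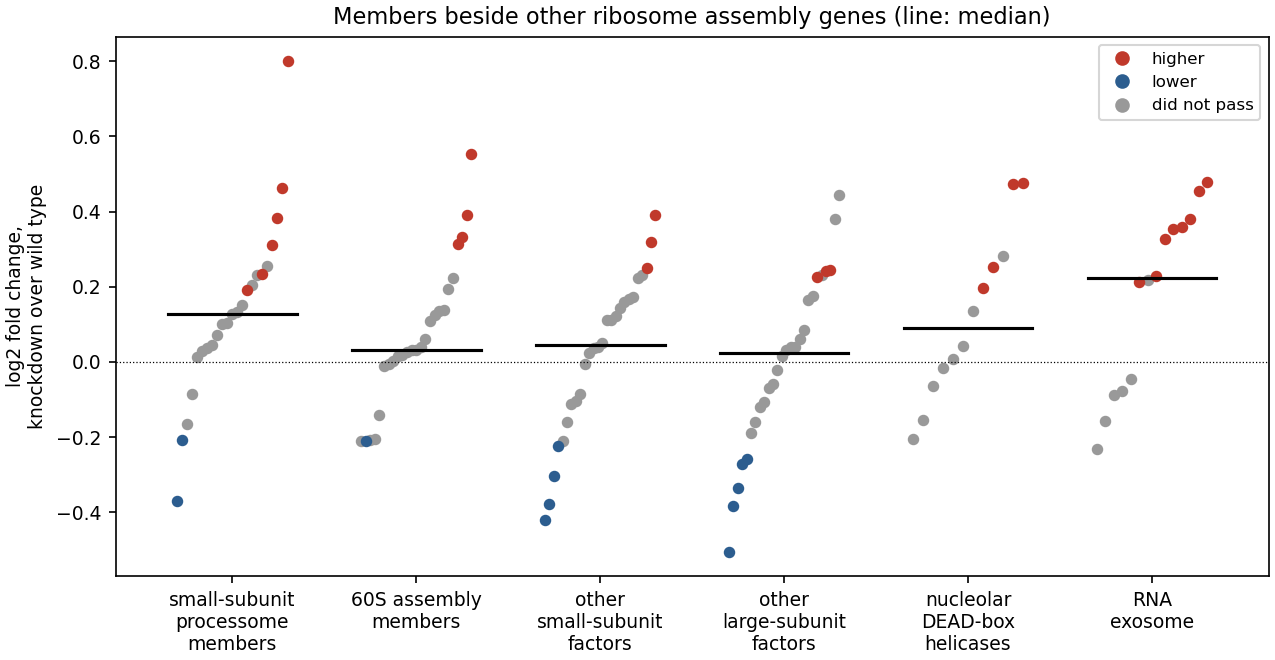
Log2 fold change, knockdown over wild type, of each gene (points) in the processome and 60S members and in 4 further lists, sorted within a list, with called genes in colour and a line at each median. The exosome list has the highest median, 0.22, and the other small-subunit and large-subunit factors have called genes on both sides of 0.

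Per transcript length the members' levels spanned a wide range. Npm1 led with 1494 CPM per kb in knockdown and 1567 in wild type, followed by Ncl with 879.6 CPM per kb in knockdown and 812 in wild type and Nop58 with 463 CPM per kb in knockdown and 428 in wild type. Rsl1d1 led the 60S class with 304 CPM per kb in knockdown and 306 in wild type, and Imp3 the processome with 194 CPM per kb in knockdown and 250.4 in wild type. At the low end Nmd3 had 4.30 CPM per kb in knockdown and 4.97 in wild type, Nol6 4.34 CPM per kb in knockdown and 4.04 in wild type and Mdn1 5.99 CPM per kb in knockdown and 4.08 in wild type. These levels use the length of 1 principal transcript per gene, and the order rests on that choice. The transcript used has 8202 bases for 707 codons in Ncl and 9135 bases for 503 codons in Nmd3. For Npm1 it has 1633 bases for 292 codons.

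Some counts are uncertain, since neither the strand setting used in counting nor the handling of multi-mapping reads is given in the sources used here. Among the called members, exons of Nvl, Wdr3, Imp4, Heatr1, Bop1, Nhp2 and Nop56 overlap a gene on the other strand, by 1137 bases for Nvl, 847 for Wdr3, 209 for Imp4 and 155 for Heatr1. In all, 14 of the 58 members have annotated pseudogenes with at least 90% identity over at least 300 bases, among them Npm1 with 8, Nop56 with 5, Nvl with 2 and Imp3 and Nhp2 with 1 each.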

How the data were processed

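PolyA RNA of cultured LLC1 cells was sequenced in 3 knockdown and 4 wild-type libraries. The authors deposited raw counts of reads by gene symbol in 1 table with 0 further sample columns. The single-cell data of the series were not used here. Trimmomatic, STAR, HTSeq and the build mm10 are named in the submitters' processing notes without versions or roles. Which annotation and strand setting were used, and how multi-mapping reads were treated, is not given in the sources used here.

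The analysis used edgeR 4.0.16 (R 4.3.3). The filter filterByExpr left 11594 genes (9012 had no count in any library), and TMM factors ran from 0.963 to 1.04. The robust quasi-likelihood test used all 7 libraries and the group as its single term, with Benjamini-Hochberg adjustment over all tested genes and a threshold of 0.05. Each SE was derived from the F statistic and the log2 fold change and is approximate. Tested on counts simulated for this comparison (11594 genes), 52.2% of changes of 0.5 log2 units were found, 76.7% of those of 1 and 97.1% of those of 2. These shares cover genes of every level, and fewer genes were changed than were called in the data. They do not give the recovery for the members. Libraries of a group differed by more than sampling noise, the chi-square being 8.31 to 16.3 times its degrees of freedom. Depth limits the precision of weakly expressed genes.

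The members and lists were chosen with earlier results of these data known. Genes named with every library are Ddx54, all members past the threshold, the member of each class with the highest CPM per transcript kb, and the 2 members next by p. The 2 largest rises and 2 largest falls past the threshold in each other list are named too. Ncl, Myc, Cirh1a, Nol11, Wdr75, Pes1, Rrp1b and Nmd3 were added after their values were seen. Positions, transcript and coding lengths and neighbours come from the GENCODE annotation of GRCm38, matched for 99.2% of tested genes, and promoter sequences from RefSeq (GRCm38.p6). Alternatives were scaling by RLE or upper quartile, testing without a low-count filter or with a minimum of 50 counts in 3 libraries, DESeq2 1.42.0, voom in limma 3.58.1, a replicate block, removal of Rn45s, a loess correction (span 0.5) for GC and transcript length, and omission of each library in turn.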

Additional observations from a re-analysis of the deposited data

Results flagged for a closer look

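In 3 members a wild-type library stood apart from the 3 others of its group by Dixon's test, among 65 gene and class values examined, where about 3.25 would do so by chance. Mphosph10 was low in wild-type replicate 4, at 116 CPM, against 123 to 125 CPM in the others. Rrp9, the U3 protein, was low in wild-type replicate 3, at 47.6 CPM, against 57.2 to 58.7 CPM. Pwp1 was high in wild-type replicate 1, at 96.6 CPM, against 85.4 to 85.9 CPM. None of the 3 genes passed the test between knockdown and wild type.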

How the results depend on the processing

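RLE and upper-quartile scaling, both other low-count filters, removal of Rn45s and DESeq2 kept all 16 member calls and added none, limma-voom kept all 16 and added Ncl (0.11, adjusted p = 0.0415), and these scalings moved the median of all tested genes by less than 0.1 log2 units. Utp20, Mdn1, Rrp12, Heatr1, Ftsj3, Nop56 and Imp3 kept their calls in all 16 alternatives, 7 of the 16 called members. The GC and length correction gave 15 rises and 4 falls, with 2 falls in the 60S class. Under it Rrp1 (0.0905) and Rcl1 (0.0577) lost their calls by adjusted p, Utp3 and Nolc1 gained one as rises and Wdr36, Pwp1 and Nmd3 as falls, with 0.0161 for Nolc1, and the log2 fold change of Ncl turned to -0.0098. The cause was not tested.

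Leaving out 1 library in turn gave 8 to 16 member rises and 1 to 3 falls, 3 to 8 processome rises and 1 to 2 processome falls, 3 to 4 60S rises and 0 to 1 60S falls. In the other lists it gave 2 to 4 small-subunit falls, 3 to 5 large-subunit falls, 1 to 4 DEAD-box rises and 5 to 8 exosome rises. The 60S median log2 fold change ran from 0.020 to 0.075, and was 0.059 with the replicate number as a block. The Ddx54 log2 fold change ran from -0.93 to -0.83.

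The values gave no sign that the replicate numbers pair the samples. The deviations of same-numbered libraries from their group means correlated at -0.034, -0.028 and -0.0063, which cannot exclude a pairing. Only wild type has a replicate 4, so a block on the replicate number takes up that library, which then adds nothing to the group comparison. Leaving out wild-type replicate 4 also kept 12 of the 16 calls and lost the same member calls as the block. With the replicate number as a block, 10 members rose and 2 fell, and 12 of the 16 calls remained. Under the block 60S falls numbered 0, other small-subunit falls 2 and exosome rises 5. The members that lost their calls were Rrp1 (adjusted p = 0.0948), Bms1 (0.0935), Nop10 (0.0878) and Nhp2 (0.102), and Ddx51 (0.168) and Cirh1a (0.0545) lost theirs as well. On simulated counts of all tested genes, weakly expressed ones included, changes of 0.5 log2 units were recovered only in part. That share does not describe the members. For 41 of the 42 members that did not pass, the 95% interval stayed within 0.5 log2 units of 0. Smaller changes may still have been missed, so a missed threshold does not show that a level was equal.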
